A study of Mus musculus with 10 samples.

Results

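The 37 genes described here encode enzymes of amino acid breakdown and some closely linked to it, such as a kinase that holds breakdown back and enzymes that make arginine. They were chosen by name, as the genes of the deposited count table whose symbol is that of a listed enzyme of the breakdown of branched-chain amino acids and propionate, of lysine and the aromatic amino acids, of proline, glutamate and arginine, or of histidine and the sulfur amino acids. All 37 were among the 54532 genes of the table, and 35 had enough reads to be tested. Amino acids that are not built into protein lose their nitrogen by transamination or deamination, and their carbon skeletons are oxidised, mostly in mitochondria, to acetyl-CoA or to intermediates of the citric acid cycle. Valine and isoleucine are among the amino acids that enter it through propionyl-CoA and succinyl-CoA, upstream of succinate, the substrate of succinate dehydrogenase. In the kidney these enzymes are best known from the proximal tubule, whose cells take up filtered amino acids, make arginine from citrulline and release ammonia from glutamine and glutamate.

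The comparison asks whether transcripts of these enzymes differ between treatments in obstructed kidneys. The kidneys came from male C57BL/6 mice of WT genotype that were 8 weeks old when the left ureter was ligated (unilateral ureteral obstruction, UUO), and they were collected on day 14. PBS was given to the 5 control mice, and DMM (dimethyl malonate, an ester of the succinate dehydrogenase inhibitor malonate) was injected into the peritoneum of 5 mice at 40 mg/kg every other day. RNA from tissue of each kidney made up a single library, and unobstructed kidneys were not analysed here. The methods of the study name kidney tissues and do not say which part of the kidney was taken. Each library held between 15722527 and 19475833 counted reads. Levels are given as CPM, counts scaled for library size and by TMM over all 10 libraries. A gene was called at an adjusted p under 0.05 with a fold change above 1.5, by edgeR's quasi-likelihood test over all tested genes.

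PBS replicate 3, DMM replicate 1 and DMM replicate 4 stood apart from the libraries of their groups. The group means that the authors deposited give a weight of 0 to PBS replicate 3 and to DMM replicate 1, so that they rest on 8 libraries. The methods of the study state 5 replicates in each group, and no reason for these weights is given in the sources used here. Results are therefore given over all 10 libraries and over those 8, which are part of the 10. The median correlation of DMM replicate 1 with the libraries of its own group was 0.959, below its median of 0.985 with PBS libraries. Transcripts of the mitochondrial genome that encode protein took 3.58% of the counts in PBS replicate 3, against 1.90 to 2.25% in the other PBS libraries. In DMM replicates 1 to 5 this share was 2.24, 3.71, 3.96, 5.20 and 4.30%, so that DMM replicates 2 to 5 lay above PBS replicates 1, 2, 4 and 5. They did so too for 10 of the 35 tested members, against 9.45% of all tested genes. The part of the mitochondrial share in the result was not tested. DMM replicate 4 had reads on 20029 genes, against 22898 to 23583 in the other DMM libraries, and 0.392% of its counts fell on mitochondrial rRNA, against 0.0484 to 0.0743%. Its TMM factor was 0.852 and its median correlation with its own group 0.915.

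Markers of the nephron were present in each library, as a kidney label requires. The summed level of 15 proximal tubule markers was 4876, 4970.5, 12009, 2077 and 3835 CPM in PBS replicates 1 to 5 and 3749, 9807, 8951, 7402 and 12627 CPM in DMM replicates 1 to 5. PBS replicate 3 had the highest sum of the PBS libraries, PBS replicate 4 the lowest, and DMM replicate 1 lay among the PBS libraries. Kap, an androgen-regulated gene of the proximal tubule, was the most abundant of these markers on average, and each of the 15 was above 1 CPM in at least 1 library. Of the 15, 6 were called higher in DMM over the 8 libraries, against 2.73% of tested genes, and 0 over all 10, against 0% (edgeR). Over all 10, 3 were higher at an unadjusted p below 0.05 (edgeR), against 4.4% of tested genes. The median log2 fold change of the 15 was 1.60 (8 libraries) and 0.73 (all 10). Hnf4a, a transcription factor of proximal tubule cells, was at 243, 262, 407, 168 and 275 CPM in PBS replicates 1 to 5 and 215, 409, 448, 384 and 500.4 CPM in DMM replicates 1 to 5. These kidneys hold many cell types, and fewer cells of a type cannot be told apart from less RNA of a gene per cell.

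How many members were called depended on the libraries that stand apart. Over all 10 libraries, edgeR called 0 of the 35 tested members higher and 0 lower, as for all 16505 genes tested (0% and 0%), and DESeq2 called 0 and 0 (0.0882% and 0.227% of genes with an adjusted p). An unadjusted p below 0.05 together with the fold change limit held for 0 members higher and 0 lower, against 1.91% and 4.11% of all tested genes. Glud1 was the only member with an unadjusted p below 0.05 at any fold change, so 1 was higher and 0 lower, against 4.4% and 6.49% of tested genes. The log2 fold change was above 0 in 34 of the 35 members, against 52.8% of all tested genes. The median of the members was 0.40, and that of all tested genes was 0.02. The SD between libraries of a group in the members' median log2 CPM was 0.45, larger than this median. The 95% interval held 0 for 34 of 35.

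Over the 8 libraries, 8 of the 35 members (22.9%) were called higher in DMM kidneys, against 2.73% of the 16550 genes tested (edgeR). They were Dbt, Mccc1, Hibch and Hibadh of branched-chain amino acid breakdown, Aass and Hykk of lysine breakdown, and Cbs and Cth of the sulfur amino acids. The 2 libraries left out lay near the other group, PBS replicate 3 above the DMM mean and DMM replicate 1 within the PBS range for 31 members each. For 34 members the log2 fold change was smaller in absolute value over all 10 than over the 8. Calls and separation over the 8 are thus in part set by which libraries were left out. edgeR called 0 members lower, against 3.56% of tested genes, and DESeq2 also called 0 lower, against 4.55%. Adjusted p alone, with no limit on the fold change, held for 9 members higher (the 8 and Acadsb) against 3.17% of genes, and for 0 lower against 4% (edgeR). An unadjusted p below 0.05 together with the fold change limit held for 21 members higher and 0 lower, against 6.45% and 7.24% of tested genes. At any fold change it held for 24 higher and 0 lower, against 10.8% in each direction. The log2 fold change was above 0 in 34 members, against 52.4% of genes. The median log2 fold change was 0.77 for the members and 0.02 for all tested genes, beside an SD between these libraries of 0.37 in the members' median log2 CPM. In 10 members the 4 PBS and the 4 DMM libraries did not overlap, with DMM higher, against 9.45% of tested genes, and in 0 they did so with DMM lower, against 10.6%. The 10 were the 8 called members, Acadsb and Glud1. Over all 10 libraries the groups overlapped in each of the 35, while DMM lay entirely above PBS in 0.794% of tested genes and entirely below it in 1.16%.

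The count of 8 moved with each library that was left out. It was 4 without PBS replicate 1 and 4 without DMM replicate 2, against 1.34% and 2.23% of all tested genes in the same edgeR fits. It was 2 without PBS replicate 2 and 2 without PBS replicate 4, against 1.17% and 0.952%. Without PBS replicate 5, DMM replicate 3 or DMM replicate 5, Hykk was the only member called (1 in each case), against 0.774%, 1.10% and 0.995%. When DMM replicate 4 was left out, 26 of 35 members were called, among them the 8, against 6.71% of tested genes, and 0 were called lower, against 7.61%. The members not called then were Bcat1, Bcat2, Bckdhb, Bckdk, Auh, Acadsb, Oat, Glud1 and Amdhd1. DESeq2 called 14 of 35 members over the 8 libraries, against 3.74% of genes with an adjusted p. The 14 were the 8 together with Gcdh, Hpd, Hgd, Fah, Prodh and Ass1. When only library size and no TMM factor was used, Aass, Hykk and Cth were called (3 members, against 1.67% of genes). With no filter on low counts 7 members were called, against 1.35% of genes, where Hibch and Hibadh lost the call and Hpd gained it. At an adjusted p under 0.01, edgeR called Hykk (1 member, against 0.441% of genes) and 0 members lower, against 1.32%. With the replicate number as a block over all 10 libraries (a replicate block), 0 members were called and their median was 0.36.

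**Figure D1:**
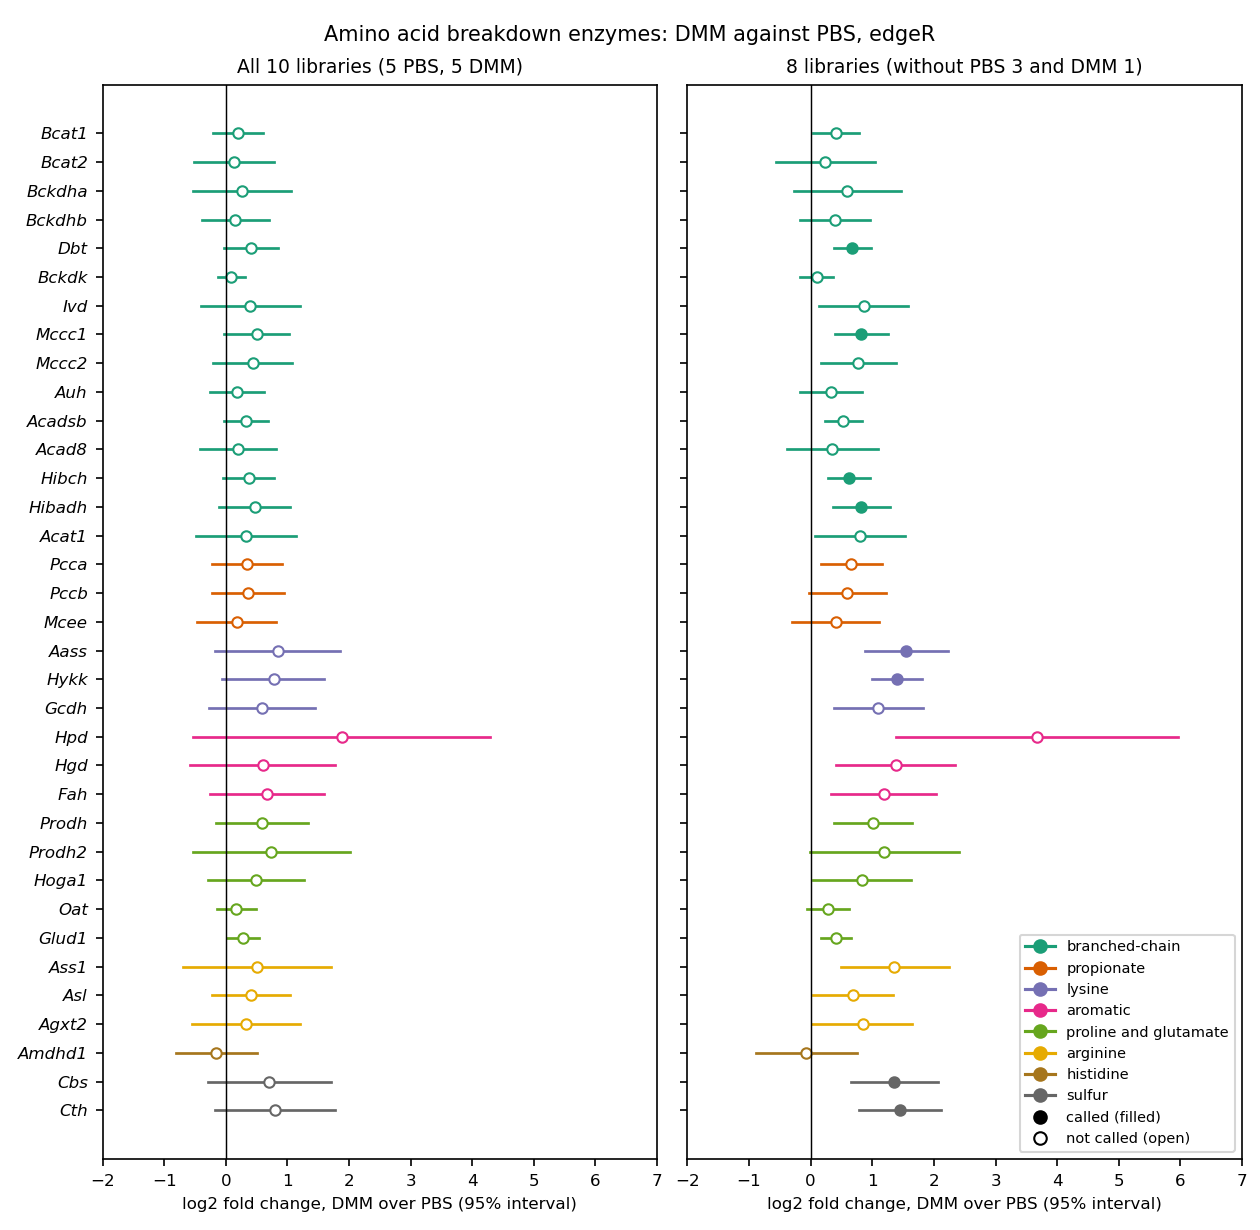
Log2 fold change of DMM over PBS (x axis) with its 95% interval for each of the 35 tested members (y axis, coloured by pathway), from edgeR over all 10 libraries (left) and over the 8 libraries without PBS replicate 3 and DMM replicate 1 (right). Filled points are called members, 0 on the left and 8 on the right; Amdhd1 is the only point below 0 in each panel.

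Across the members the libraries ranked in much the same way. PBS replicate 3 was the highest PBS library for 33 of 35 tested members and was above the mean of the 5 DMM libraries for 31. PBS replicate 4 was the lowest PBS library for 26. DMM replicate 5 was the highest DMM library for 28. The lowest DMM library was DMM replicate 1 for 17 members and DMM replicate 4 for 18. DMM replicate 1 lay within the range of the other 4 PBS libraries for 31 members. DMM replicates 2, 3 and 5 were all above those 4 PBS libraries for 32 members. This split sets aside the lowest DMM library of each member and the highest PBS library of 33. The separation is thus in part set by that choice, and its share over all tested genes was not counted. The summed level of the 37 members was 2232, 2199.9, 3757, 1626 and 1959 CPM in PBS replicates 1 to 5 and 1947, 3311, 3801, 2208 and 4438 CPM in DMM replicates 1 to 5. PBS replicate 3 thus reached the level of DMM replicates 2 and 3, and DMM replicates 1 and 4 lay within the range of PBS replicates 1, 2, 4 and 5. The sums of the members and of the proximal tubule markers both had PBS replicate 3 as the highest and PBS replicate 4 as the lowest PBS library, and DMM replicate 5 as the highest and DMM replicate 1 as the lowest DMM library. The part of proximal tubule content in the result was not tested.

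**Figure D2:**
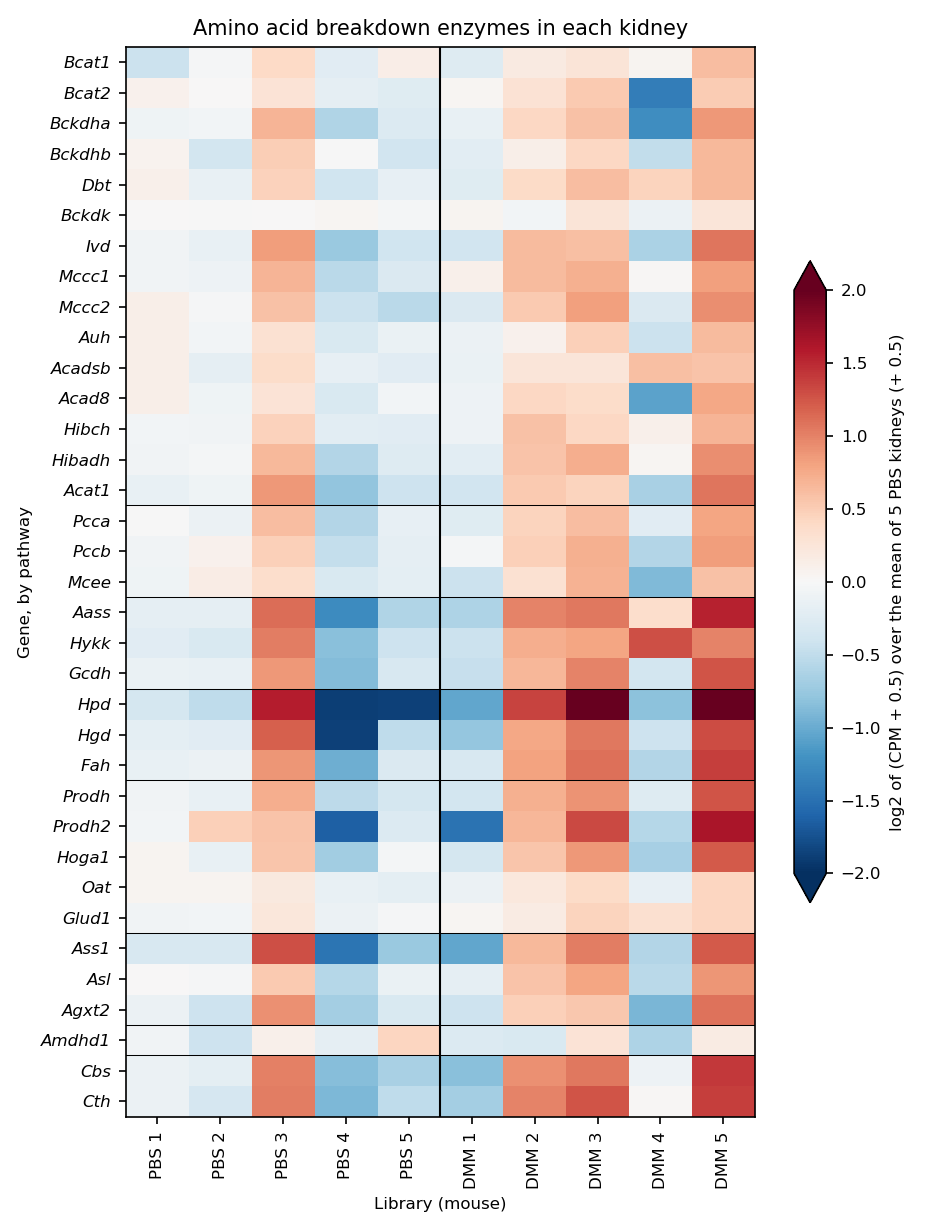
Level of each tested member (y axis, by pathway) in each of the 10 libraries (x axis), as log2 of (CPM + 0.5) relative to the mean of the 5 PBS kidneys, with red above and blue below that mean and colours ending at 2 and -2. PBS replicate 3 is the highest PBS library in 33 of 35 members. DMM replicate 1 or 4 is the lowest DMM library in each member, while DMM replicate 4 is the highest for Hykk and Acadsb.

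Levels between genes were compared per kilobase of gene model, as CPM per kb in the 5 PBS kidneys. Oat was highest at 88.1 ± 10.1 (SD, n = 5), followed by Ass1 at 82.4 ± 67.8 and Glud1 at 75.5 ± 7.50. The SD of Ass1 spans the levels of Oat and Glud1, while Oat and Glud1 each lie outside the SD of the other. Pccb followed at 40.6 ± 10.1, Acat1 at 36.1 ± 17.5 and Fah at 32.9 ± 16.7, again within their spread. Most members lay between 3.29 (Hibch) and 24.6 CPM per kb (Hgd). Hpd (0.727 ± 1.08) and Amdhd1 (0.723 ± 0.211) were far lower. Tat and Hal, the entry enzymes of tyrosine and histidine breakdown, had at most 2 and 6 reads in any library and were not tested. Their mean levels in PBS kidneys were 0.0191 and 0.0155 CPM per kb, so that a difference in them was not detectable at this depth.

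Of the 15 branched-chain members, 4 were called higher over the 8 libraries, against 2.73% of tested genes (edgeR). Over all 10, edgeR called 0, against 0% of tested genes, and DESeq2 also called 0. There 0 had an unadjusted p below 0.05 (edgeR), against 4.4% of tested genes higher and 6.49% lower. The 15 had a median log2 fold change of 0.60 (8 libraries) and 0.33 (all 10). Bcat1 and Bcat2 encode the cytosolic and the mitochondrial aminotransferase that take the amino group from leucine, isoleucine and valine. Bcat1 (chr6:144993835-145076184, minus strand, mm10) was at 49.6, 65.6, 88.2, 57.2 and 73.5 CPM in PBS replicates 1 to 5 and 55.5, 75.8, 79.7, 69.6 and 103 CPM in DMM replicates 1 to 5. Bcat2 (chr7:45570153-45589711, plus strand) was at 40.8, 38.9, 46.7, 34.0 and 32.4 CPM in PBS replicates 1 to 5 and 39.6, 47.4, 55.8, 14.4 and 54.9 CPM in DMM replicates 1 to 5. Both genes overlapped between groups over all 10 libraries and over the 8, and DMM replicate 4 was the lowest DMM library for Bcat2 but not for Bcat1. Bcat1 had a log2 fold change of 0.20 (SE 0.19, adjusted p = 0.676) over all 10 and of 0.42 (adjusted p = 0.186) over the 8 libraries by edgeR. Bcat2 had 0.14 (SE 0.29, adjusted p = 0.859) over all 10 and 0.24 (adjusted p = 0.742) over the 8 by edgeR. Without DMM replicate 4, Bcat2 had 0.53 over the remaining 7 libraries, under the fold change that a call needs. Bcat2 overlaps 0610005C13Rik, an antisense gene at a mean of 20.5 CPM, and strand use in counting is not given in the sources used here.

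The branched-chain ketoacid dehydrogenase complex commits the ketoacids to oxidation. Dbt encodes its transacylase core, Bckdha and Bckdhb the decarboxylase subunits, and Bckdk the kinase that switches the complex off. Dbt (chr3:116513070-116549981, plus strand) was at 53.3, 44.9, 69.1, 37.7 and 44.4 CPM in PBS replicates 1 to 5 and 42.2, 65.0, 76.9, 67.9 and 78.4 CPM in DMM replicates 1 to 5. DMM replicates 2 to 5 were all above the PBS libraries other than replicate 3, while DMM replicate 1 lay among these and PBS replicate 3 lay among the DMM libraries. Over the 8 libraries Dbt was at 45.1 ± 6.39 CPM in PBS and 72.0 ± 6.62 CPM in DMM kidneys (SD, n = 4 each), a log2 fold change of 0.68 (SE 0.13, adjusted p = 0.0191) by edgeR. Over all 10 its log2 fold change was 0.41 (SE 0.20, adjusted p = 0.486, edgeR). It was also called when PBS replicate 1, DMM replicate 2 or DMM replicate 4 was left out of the 8 and not in the other 5 such fits, with adjusted p from 0.00243 to 0.0781 (edgeR). Bckdk, shown after its values were seen, was at 53.0, 52.5, 53.0, 54.4 and 51.5 CPM in PBS replicates 1 to 5 and 54.8, 51.0, 63.6, 48.6 and 62.9 CPM in DMM replicates 1 to 5. The PBS kidneys were nearly level, and the log2 fold change came to 0.09 (SE 0.10) over all 10 and 0.10 over the 8, or -0.01 when only library size was used. The 95% interval over all 10 ran from -0.13 to 0.30. Bckdha ranged from 8.82 CPM (DMM replicate 4) to 39.9 CPM (DMM replicate 5) and Bckdhb from 9.42 to 21.3 CPM in the same libraries. Their log2 fold changes were 0.60 and 0.40 over the 8 libraries and 0.27 and 0.15 over all 10, and neither was called. Without DMM replicate 4 Bckdha was called at 0.89 (edgeR). Bckdha overlaps B3gnt8 on the opposite strand.

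The leucine branch continues through Ivd (isovaleryl-CoA dehydrogenase), the carboxylase subunits Mccc1 and Mccc2, and the hydratase Auh. Mccc1 (chr3:35959312-36000678, minus strand) was at 44.4, 43.5, 75.6, 32.2 and 38.2 CPM in PBS replicates 1 to 5 and 50.2, 73.1, 76.6, 47.7 and 83.3 CPM in DMM replicates 1 to 5. In DMM replicates 2, 3 and 5 it was far above PBS replicates 1, 2, 4 and 5, which DMM replicate 4 exceeded by little, and PBS replicate 3 was as high as DMM replicate 3. It had a log2 fold change of 0.83 (SE 0.19, adjusted p = 0.0331) over the 8 libraries and of 0.50 (SE 0.24, adjusted p = 0.482) over all 10 (edgeR). Of the fits without a single one of the 8 libraries, that without DMM replicate 4 called it, at 0.97 (edgeR), and over the 8 the adjusted p ran from 0.000509 to 0.116 (edgeR). Ivd, Mccc2 and Auh had log2 fold changes of 0.86, 0.77 and 0.33 over the 8 libraries, and none was called. Over all 10 they had 0.40, 0.44 and 0.18. Without DMM replicate 4, Ivd at 1.11 and Mccc2 at 0.97 were called and Auh at 0.51 was not, against 6.71% of tested genes higher (edgeR).

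In the valine and isoleucine branches, Hibch removes CoA from hydroxyisobutyryl-CoA and Hibadh oxidises the hydroxyisobutyrate that is left. Their values in each library, and those of Aass and Cbs, are shown because they were called, a choice made after the values were seen. Hibch (chr1:52844929-52920986, plus strand) was at 19.1, 18.9, 27.7, 17.1 and 16.9 CPM in PBS replicates 1 to 5 and 18.5, 30.1, 26.7, 21.5 and 32.3 CPM in DMM replicates 1 to 5. Hibadh (chr6:52546228-52640389, minus strand) was at 114, 116, 188, 78.9 and 99.5 CPM in PBS replicates 1 to 5 and 103, 177, 198, 122 and 227 CPM in DMM replicates 1 to 5. In each gene DMM replicates 2 to 5 exceeded PBS replicates 1, 2, 4 and 5, DMM replicate 4 by the least, and the groups overlapped once PBS replicate 3 and DMM replicate 1 were counted. Hibch had a log2 fold change of 0.62 (SE 0.15, adjusted p = 0.0413) over the 8 libraries and of 0.37 (adjusted p = 0.497) over all 10 (edgeR). For Hibadh these were 0.82 (SE 0.20, adjusted p = 0.0453) and 0.47 (adjusted p = 0.527, edgeR). Of the 8 fits that leave out another library, that without DMM replicate 4 kept the call of each, at 0.72 for Hibch and 0.97 for Hibadh, and over the 8 fits the adjusted p ran from 0.000974 to 0.140 and from 0.00134 to 0.141 (edgeR). Acadsb, the dehydrogenase of the isoleucine branch, had an adjusted p of 0.0477 over the 8 libraries (edgeR) with a log2 fold change of 0.53, below the fold change for a call. DMM replicate 4 was its highest library at 128 CPM, against 72.5 to 91.4 CPM in the 4 PBS libraries, and its span lies within that of Fgfr2 on the opposite strand. Acad8, the valine counterpart, and Acat1, the thiolase that splits the isoleucine-derived ketoacyl-CoA, had 0.35 and 0.80 over the 8 libraries and 0.20 and 0.33 over all 10, and were not called. Both were called without DMM replicate 4, at 0.62 and 1.04, against 6.71% of tested genes higher (edgeR).

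**Figure D3:**
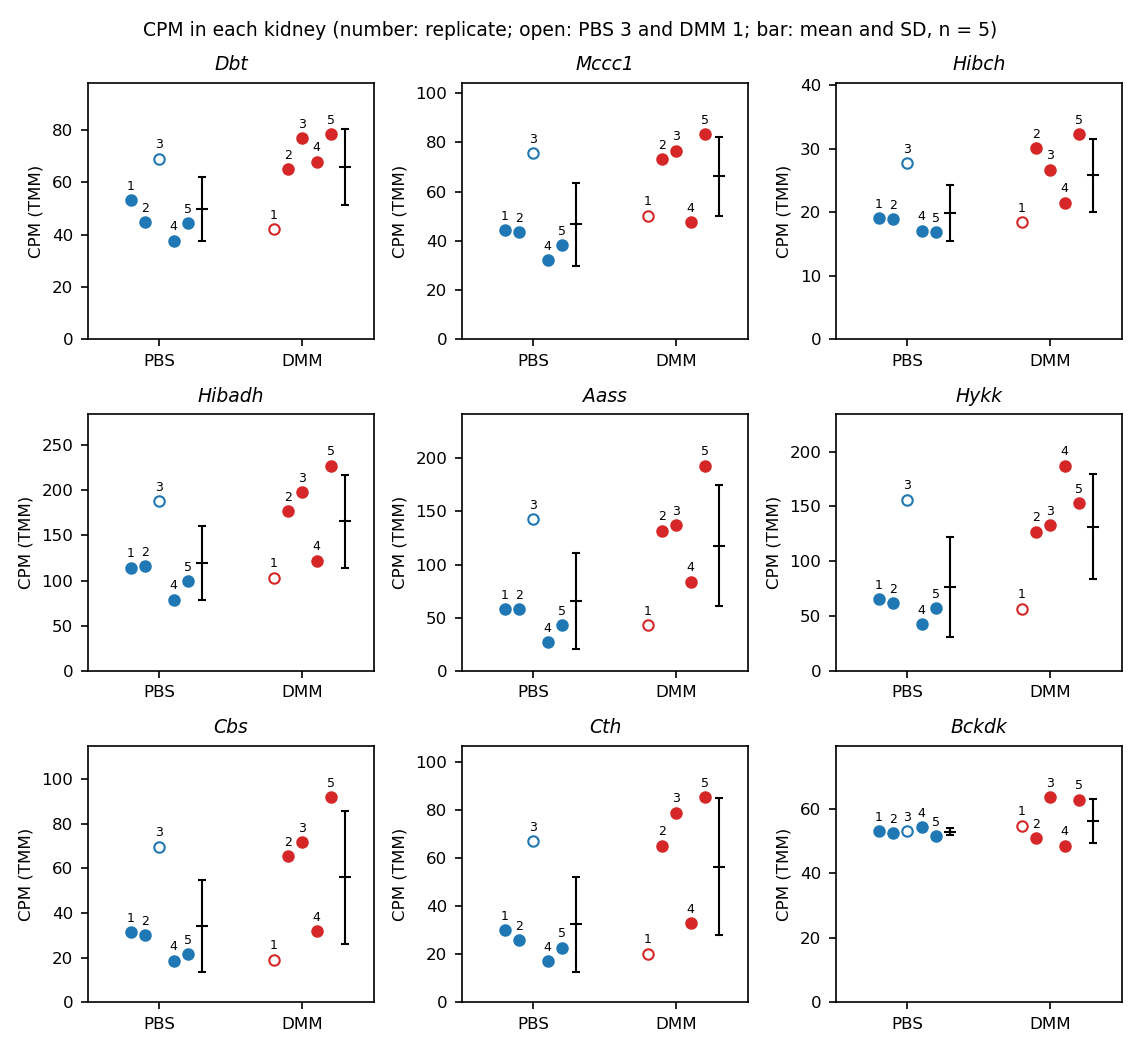
CPM (y axis, from 0) of the 8 members called over the 8 libraries, and of Bckdk, in each PBS (blue) and DMM (red) kidney, with the replicate number at each point, open points for PBS replicate 3 and DMM replicate 1, and the mean and SD of all 5 kidneys at the side. Open points lie inside the other group's range in the 8 called members, while Bckdk stays between 48.6 and 63.6 CPM.

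Propionyl-CoA from valine and isoleucine is carboxylated by the enzyme of Pcca and Pccb and then isomerised, with Mcee as the epimerase, toward succinyl-CoA. Of these 3 members, 0 were called over either set (edgeR), against 2.73% of tested genes higher over the 8 libraries and 0% over all 10. By unadjusted p below 0.05 and the fold change limit, 1 passed over the 8 libraries, against 6.45% higher, and 0 over all 10, against 1.91%. DESeq2 called 0 over either set, against 3.74% of genes higher over the 8 libraries and 0.0882% over all 10. Pcca (chr14:122534324-122891100, plus strand) was at 49.1, 45.8, 76.0, 32.8 and 44.1 CPM in PBS replicates 1 to 5 and 41.8, 67.6, 76.2, 42.3 and 85.8 CPM in DMM replicates 1 to 5. Pccb (chr9:100982032-101034898, minus strand) was at 107, 119, 156, 81.1 and 99.5 CPM in PBS replicates 1 to 5 and 109, 156, 184, 74.5 and 202 CPM in DMM replicates 1 to 5. DMM replicate 4 lay among or below the PBS libraries for both, and DMM replicates 2, 3 and 5 were above PBS replicates 1, 2, 4 and 5. Pcca had a log2 fold change of 0.66 (SE 0.22, adjusted p = 0.116) over the 8 libraries and of 0.34 (adjusted p = 0.603) over all 10 (edgeR). Pccb had 0.60 (SE 0.28, adjusted p = 0.258) and 0.37 (adjusted p = 0.587, edgeR), and Mcee 0.41 and 0.18. Without DMM replicate 4 all 3 were called, with log2 fold changes of 0.83, 0.83 and 0.66, against 6.71% of tested genes higher in that fit (edgeR). Pcca overlaps Ggact on the opposite strand.

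Lysine breakdown had the member of smallest p over the 8 libraries. There 2 of its 3 members were called higher, against 2.73% of tested genes, and 0 over all 10, against 0% (edgeR). Hykk encodes hydroxylysine kinase, which starts the removal of hydroxylysine set free from collagen. Hykk (chr9:54917283-54949924, plus strand) was at 65.5, 61.7, 156, 42.5 and 57.1 CPM in PBS replicates 1 to 5 and 56.6, 127, 133, 187 and 153 CPM in DMM replicates 1 to 5. The 4 DMM libraries other than replicate 1 were at least 127 CPM and the 4 PBS libraries other than replicate 3 at most 65.5 CPM, while PBS replicate 3 was above DMM replicates 2, 3 and 5 and DMM replicate 1 lay among the PBS libraries. Over the 8 libraries Hykk was at 56.7 ± 10.1 CPM in PBS and 149.8 ± 27.0 CPM in DMM kidneys (SD, n = 4 each), 2.64-fold higher, with a log2 fold change of 1.40 (SE 0.18, adjusted p = 0.00300) by edgeR. Each of the 8 fits without a further library called it, with log2 fold changes from 1.28 to 1.47 and adjusted p from 0.000400 to 0.0185. Over all 10 libraries the log2 fold change was 0.78 (SE 0.38, adjusted p = 0.484, edgeR). It was 1.21 over the 9 libraries left without PBS replicate 3. Aass, for the bifunctional enzyme of the main lysine route, (chr6:23072173-23132986, minus strand) was at 58.0, 57.8, 143, 27.2 and 43.0 CPM in PBS replicates 1 to 5 and 42.8, 132, 137, 83.8 and 193 CPM in DMM replicates 1 to 5. DMM replicates 2 to 5 again exceeded the 4 PBS libraries other than replicate 3, and PBS replicate 4 was the lowest of all. Aass had a log2 fold change of 1.55 (SE 0.30, adjusted p = 0.0186) over the 8 libraries and of 0.84 (adjusted p = 0.520) over all 10 (edgeR). It lost the call without PBS replicate 5 (1.51, adjusted p = 0.0744), DMM replicate 3 (1.55, adjusted p = 0.0532) or DMM replicate 5 (1.34, adjusted p = 0.0526, all edgeR), and over all 8 such fits its adjusted p ran from 0.00136 to 0.0744. Gcdh, glutaryl-CoA dehydrogenase, ranged from 36.0 to 121 CPM in PBS and from 47.7 to 158 CPM in DMM kidneys. Its log2 fold change was 1.10 (adjusted p = 0.0773) over the 8 libraries and 0.58 (adjusted p = 0.568) over all 10 by edgeR, and 1.34 (edgeR) without DMM replicate 4. It overlaps Syce2 on the opposite strand.

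Of the aromatic amino acid members, Hpd, Hgd and Fah act one after another below Tat on tyrosine. Of these 3, edgeR called 0 over either set, against 2.73% of tested genes higher over the 8 libraries and 0% over all 10. By unadjusted p below 0.05 and the fold change limit, all 3 passed over the 8 libraries, against 6.45% higher, and 0 over all 10, against 1.91%. DESeq2 called all 3 over the 8 libraries, against 3.74% of genes higher, and 0 over all 10, against 0.0882%. Hpd, the dioxygenase that makes homogentisate (chr5:123171807-123182727, minus strand), was at 1.11, 0.942, 5.57, 0.0532 and 0.0588 CPM in PBS replicates 1 to 5 and 0.494, 4.73, 8.73, 0.664 and 13.9 CPM in DMM replicates 1 to 5. Its values were the most uneven, with DMM replicates 1 and 4 below PBS replicates 1 and 2, and PBS replicates 4 and 5 near 0. Its counts ran from 1 to 228 reads. Its log2 fold change was 3.67 (SE 1.02, adjusted p = 0.0645) over the 8 libraries and 1.88 (SE 1.10, adjusted p = 0.535) over all 10 (edgeR), and it was called without DMM replicate 4 at 4.05 (edgeR). The span of Hpd lies within that of Psmd9 on the opposite strand, which had a mean of 26.9 CPM, while Hpd was at 0.0532 and 0.0588 CPM in PBS replicates 4 and 5. Overlap of exons was not analysed here. Hgd, which opens the ring, ranged from 17.3 to 148 CPM in PBS and from 37.4 to 160 CPM in DMM kidneys, and Fah, which yields fumarate, reached 135 and 190 CPM in these groups. Their log2 fold changes were 1.38 (adjusted p = 0.0963) and 1.19 (adjusted p = 0.101) over the 8 libraries by edgeR, and 0.60 and 0.67 over all 10. Without DMM replicate 4 both were called, at 1.63 and 1.46, against 6.71% of tested genes higher (edgeR).

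Among the 5 members of proline and glutamate breakdown edgeR called 0 over either set, against 2.73% of tested genes higher over the 8 libraries and 0% over all 10. By unadjusted p below 0.05 and the fold change limit there were 2 over the 8 libraries, against 6.45% higher, and 0 over all 10, against 1.91%. DESeq2 called Prodh over the 8 libraries, against 3.74% of genes higher, and 0 over all 10, against 0.0882%. Prodh oxidises proline and Prodh2 hydroxyproline. Prodh (chr16:18060357-18090203, minus strand) was at 40.6, 38.5, 70.9, 29.5 and 33.3 CPM in PBS replicates 1 to 5 and 33.0, 69.9, 80.2, 35.5 and 102 CPM in DMM replicates 1 to 5. Prodh2 (chr7:30493622-30513402, plus strand) was at 13.3, 19.5, 20.9, 4.10 and 11.4 CPM in PBS replicates 1 to 5 and 4.63, 22.1, 35.4, 9.12 and 43.8 CPM in DMM replicates 1 to 5. For both, DMM replicates 2, 3 and 5 were above PBS replicates 1, 2, 4 and 5, and DMM replicates 1 and 4 lay among the PBS libraries. Prodh had a log2 fold change of 1.02 (SE 0.28, adjusted p = 0.0649) over the 8 libraries and of 0.59 (adjusted p = 0.532) over all 10 (edgeR). Prodh2 had 1.19 (SE 0.53, adjusted p = 0.236) and 0.73 (adjusted p = 0.615, edgeR). Both were called without DMM replicate 4, at 1.24 and 1.49, against 6.71% of tested genes higher (edgeR). Prodh overlaps Dgcr6 on the opposite strand. Glud1, glutamate dehydrogenase (chr14:34310727-34345265, plus strand), was at 304, 306, 373, 293 and 314 CPM in PBS replicates 1 to 5 and 326, 355, 433, 397 and 427 CPM in DMM replicates 1 to 5. Each DMM library was above each PBS library other than replicate 3, DMM replicate 1 included, and PBS replicate 3 exceeded DMM replicates 1 and 2. The log2 fold change of Glud1 was 0.28 (SE 0.12, unadjusted p = 0.0340, adjusted p = 0.429) over all 10 libraries and 0.40 (SE 0.11, adjusted p = 0.0581) over the 8 (edgeR). DMM replicate 4 stood at the level of the other DMM libraries for this gene. Oat, ornithine aminotransferase, ranged from 181 to 239 CPM in PBS and from 186 to 279 CPM in DMM kidneys. Its log2 fold change came to 0.29 in the 8 libraries and 0.17 in all 10, and it was not called without DMM replicate 4 either. Hoga1, which cleaves the hydroxyproline-derived ketoacid into glyoxylate and pyruvate, had 0.83 over the 8 libraries and 0.50 over all 10 and was called without DMM replicate 4 at 1.10 (edgeR). The span of Oat lies within that of Fgfr2, and Hoga1 overlaps 4933411K16Rik, on their own strand.

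Ass1 and Asl make arginine from citrulline in the kidney, a step of synthesis and not of breakdown, and Agxt2 is a mitochondrial aminotransferase that acts on dimethylarginine. Of these 3 members 0 were called over either set (edgeR), against 2.73% of tested genes higher over the 8 libraries and 0% over all 10. By unadjusted p below 0.05 and the fold change limit, 3 passed over the 8 libraries, against 6.45% higher, and 0 over all 10, against 1.91%. DESeq2 called Ass1 over the 8 libraries, against 3.74% of genes higher, and 0 over all 10, against 0.0882%. Ass1 (chr2:31470207-31520672, plus strand) was at 159.8, 159.5, 485, 72.0 and 119 CPM in PBS replicates 1 to 5 and 96.9, 313, 404, 132 and 465 CPM in DMM replicates 1 to 5. Asl (chr5:130011258-130029247, minus strand) was at 64.8, 63.2, 92.4, 43.4 and 58.5 CPM in PBS replicates 1 to 5 and 57.1, 95.7, 112, 44.0 and 119 CPM in DMM replicates 1 to 5. For Ass1, PBS replicate 3 was the highest of all 10 libraries, and for both genes DMM replicates 1 and 4 lay within the PBS range. Ass1 had a log2 fold change of 1.36 (SE 0.39, adjusted p = 0.0706) over the 8 libraries and of 0.50 (SE 0.55, adjusted p = 0.717) over all 10 (edgeR). Asl had 0.69 (SE 0.29, adjusted p = 0.202) and 0.41 (adjusted p = 0.575, edgeR), and Agxt2 0.84 and 0.33. Without DMM replicate 4 all 3 were called, with 1.63, 0.93 and 1.12, against 6.71% of tested genes higher in that fit (edgeR).

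Hal and Amdhd1 act on histidine and lie 4033 bases apart on chromosome 10. Amdhd1, the enzyme that opens the imidazolone ring (chr10:93523338-93540033, minus strand), was at 1.64, 1.18, 1.91, 1.49 and 2.53 CPM in PBS replicates 1 to 5 and 1.36, 1.32, 2.21, 0.966 and 2.01 CPM in DMM replicates 1 to 5. The groups overlapped throughout, with 16 to 43 reads per library. It was the only tested member with a log2 fold change below 0, at -0.15 (SE 0.30, adjusted p = 0.846) over all 10 libraries and -0.07 (SE 0.36, adjusted p = 0.933) over the 8 (edgeR). The sign turned without PBS replicate 5, to 0.02 (from all 10) and 0.18 (from the 8), and within the 8 libraries also without DMM replicate 2 (0.01) or DMM replicate 4 (0.12).

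Both members of the sulfur amino acid group were called higher over the 8 libraries, against 2.73% of tested genes, and neither over all 10, against 0% (edgeR). Cbs and Cth are the enzymes of transsulfuration, which turns homocysteine into cystathionine and then cysteine. Cth (chr3:157894248-157925077, minus strand) was at 30.0, 25.8, 67.0, 17.2 and 22.8 CPM in PBS replicates 1 to 5 and 20.2, 65.2, 78.9, 33.0 and 85.4 CPM in DMM replicates 1 to 5. Cbs (chr17:31612623-31637199, minus strand) was at 31.5, 30.0, 69.7, 18.7 and 21.6 CPM in PBS replicates 1 to 5 and 19.1, 65.4, 71.9, 32.0 and 91.9 CPM in DMM replicates 1 to 5. The libraries stood in nearly the same order for both, with DMM replicate 4 just above PBS replicate 1, PBS replicate 3 at the level of DMM replicate 2, and DMM replicate 1 among the low PBS libraries. Over the 8 libraries Cth was at 24.0 ± 5.38 CPM in PBS and 65.6 ± 23.3 CPM in DMM kidneys (SD, n = 4 each), 2.74-fold higher, and Cbs at 25.4 ± 6.28 and 65.3 ± 24.9 CPM, 2.56-fold higher. Cth had a log2 fold change of 1.45 (SE 0.29, adjusted p = 0.0216) and Cbs of 1.36 (SE 0.31, adjusted p = 0.0331) by edgeR. Over all 10 these were 0.80 (adjusted p = 0.526) and 0.71 (adjusted p = 0.555, edgeR). Cth was also called without PBS replicate 1, DMM replicate 2 or DMM replicate 4, and Cbs without DMM replicate 4, among fits that leave out another of the 8. Over those 8 fits the adjusted p of Cth ran from 0.000291 to 0.0835 and that of Cbs from 0.000661 to 0.117 (edgeR).

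Members differed in how far DMM replicate 4 lay from the other DMM kidneys, and the difference went with the length and base composition of the genes. As log2 of its CPM over the mean CPM of DMM replicates 2, 3 and 5, with 0.5 added to each, it ran from -3.04 (Hpd) to 0.44 (Hykk) and was above 0 for Hykk and Acadsb. Its Spearman correlation with gene model length was 0.544 over the 35 members and 0.444 over 16505 tested genes. With the GC content of the longest transcript it was -0.645 over the 35 members and -0.485 over 16491 genes. These are descriptions of a single library over genes that share its depth, and genes are not independent replicates. In the 18 members at or above the median length of 3348 bp the median ratio was -0.78, and in the 17 shorter ones -1.42. In the 18 members at or above the median GC content of 49.7% it was -1.39, and in the 17 below it -0.70. Bckdha, Prodh2 and Bcat2, at 57.9, 58.3 and 54.3% GC, had ratios of -1.88, -1.83 and -1.83. Dbt and Hykk, at 42.1 and 43.8%, had -0.11 and 0.44. Some members departed from this tendency. Acad8 and Cth, at 43.9 and 44.2% GC, had -1.6 and -1.2, and Bckdk, at 52.7%, had -0.28. The part of RNA quality or library preparation of DMM replicate 4 in the values of these members was not tested.

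**Figure D4:**
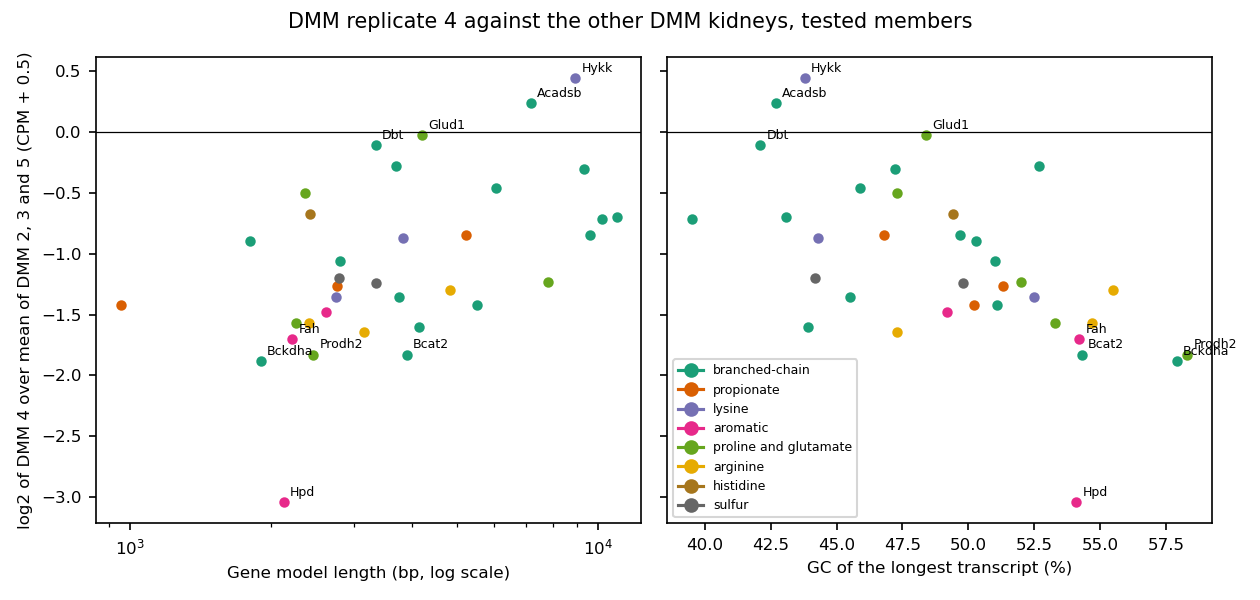
Log2 of CPM in DMM replicate 4 over the mean CPM of DMM replicates 2, 3 and 5 (y axis, 0.5 added to each) for the 35 tested members, against gene model length in bp (left, log axis) and GC content of the longest transcript in percent (right). Members of greater length or lower GC content tend to lie nearer to or above 0, with exceptions such as Acad8 (4143 bp, 43.9% GC) at -1.6. Hykk is at 0.44, and Hpd lies lowest at -3.04.

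Of 56 further genes of the same pathways in the table, 50 were tested. Over the 8 libraries edgeR called 12 of these higher and 0 lower, against 2.73% and 3.56% of tested genes. Over all 10 it called 0 either way, against 0% and 0%. By unadjusted p below 0.05, 7 were higher and 0 lower over all 10 (edgeR), against 4.4% and 6.49%. The median log2 fold change of the 50 was 0.53 (8 libraries) and 0.31 (all 10). The 5 of the smallest unadjusted p over the 8 libraries were Aldh6a1, Oxct1, Ddah1, Uroc1 and Mut. Aldh6a1, which follows Hibadh in the valine branch and gives propionyl-CoA, was at 154, 151, 357, 87.2 and 145 CPM in PBS replicates 1 to 5 and 131, 293, 324, 361 and 456 CPM in DMM replicates 1 to 5. Uroc1, urocanase, the step between Hal and Amdhd1, was at 7.31, 5.41, 10.6, 4.42 and 5.29 CPM in PBS replicates 1 to 5 and 6.67, 11.3, 26.2, 14.8 and 26.7 CPM in DMM replicates 1 to 5. Mut, the mutase that follows Mcee and forms succinyl-CoA, was at 75.4, 68.7, 130, 50.5 and 68.6 CPM in PBS replicates 1 to 5 and 59.5, 117, 120.4, 109.6 and 153 CPM in DMM replicates 1 to 5. In all 3, DMM replicates 2 to 5 were above PBS replicates 1, 2, 4 and 5. Oxct1, the ketone body transferase, was at 289.6, 263, 529, 187 and 224 CPM in PBS replicates 1 to 5 and 242, 432, 425, 486 and 544 CPM in DMM replicates 1 to 5. Ddah1, which hydrolyses dimethylarginine, was at 103, 109.7, 163, 97.7 and 113 CPM in PBS replicates 1 to 5 and 111, 146, 184, 203 and 182 CPM in DMM replicates 1 to 5. Here too DMM replicates 2 to 5 were above PBS replicates 1, 2, 4 and 5, and PBS replicate 3 lay among them. The log2 fold change of Aldh6a1 was 1.42 over the 8 libraries (adjusted p = 0.00731, edgeR) and 0.81 over all 10. For Uroc1 it was 1.82 over the 8 libraries (adjusted p = 0.0112, edgeR) and 1.38 over all 10, and for Mut 0.92 over the 8 libraries (adjusted p = 0.0114, edgeR) and 0.51 over all 10. Oxct1 had 0.97 over the 8 libraries (adjusted p = 0.0107, edgeR) and 0.51 over all 10, and Ddah1 0.75 over the 8 libraries (adjusted p = 0.0108, edgeR) and 0.49 over all 10. Otc and Cps1, the urea cycle enzymes of liver mitochondria, had at most 4 and 7 reads in any library and were not tested.

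Markers of other cell types moved beside these genes to different degrees, and their part in the result was not tested. For comparison, edgeR called 2.73% of all tested genes higher and 3.56% lower over the 8 libraries. Of the 8 markers of the loop and distal nephron, 4 were called higher over the 8 libraries. Their summed level, with Umod as the most abundant, was 3166, 2644, 4372, 1988 and 1753 CPM in PBS replicates 1 to 5 and 2761, 4252, 4925, 1991 and 5266 CPM in DMM replicates 1 to 5. Of 6 fibroblast and myofibroblast markers, 2 were called lower over the 8 libraries. With Col3a1 as the most abundant, they summed to 6143, 9235, 4742, 13607 and 8647 CPM in PBS replicates 1 to 5 and 10711, 4920.2, 3384, 6821 and 3787 CPM in DMM replicates 1 to 5. Both sums had PBS replicate 3 nearer to DMM replicates 2, 3 and 5 than to the other PBS libraries, as the sum of the members did. Of 7 leukocyte markers, 1 was called lower over the 8 libraries and 0 over all 10 (edgeR). By unadjusted p below 0.05, 5 were lower in each set, against 10.8% of tested genes over the 8 libraries and 6.49% over all 10 (edgeR). The 7 markers had median log2 fold changes of -0.75 (8 libraries) and -0.60 (all 10). With Csf1r as the most abundant they summed to 664, 627, 594, 646 and 709 CPM in PBS replicates 1 to 5 and 578, 463, 372, 556 and 379.8 CPM in DMM replicates 1 to 5. None of the 6 injured tubule, 4 podocyte and 5 endothelial markers was called in either direction over the 8 libraries (edgeR). At an unadjusted p under 0.05 there were 0, 0 and 0, against 10.8% of tested genes in each direction (edgeR). Many of the members are also abundant in liver. Of 7 hepatocyte markers 4 were tested and all 4 called higher over the 8 libraries, and with Cyp2e1 as the most abundant the 7 summed to 145, 158, 393, 78.5 and 170.4 CPM in PBS replicates 1 to 5 and 137, 465, 327, 259.8 and 709 CPM in DMM replicates 1 to 5. Alb was at most 1.52 CPM in any library, Ahsg at most 1.33 CPM, and Apoa1 and Tdo2 were under 1 CPM throughout. Adipocyte markers summed to at most 27.4 CPM, in PBS replicate 4, and skeletal muscle markers to at most 1.82 CPM, in PBS replicate 5. Over all 10 libraries no marker of any list was called (edgeR; 0 of 16505 genes were).

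The 37 members lie on 15 chromosomes, with 8 on chromosome 7 and 5 on chromosome 9. RefSeq promoters (250 bases before to 50 after the start, GRCm38.p6) matched 33 members. Those of Dbt, Acat1, Asl and Cth were not used here. Each promoter was searched on both strands for the letters of 4 motifs of factors known from proximal tubule or amino acid control. CAAAGTCCA, of the HNF4 type, was found in 1 member (Agxt2), against 0.555% of all 27025 symbols. GTTAAT, of the HNF1 type, was found in Bckdhb, Hoga1 and Prodh2, 9.09% of the members with a promoter and 8.24% of all symbols. A direct repeat with a single base between, and TGATGCAA, of the ATF4 and C/EBP type, were found in 0 members, against 0.0481% and 1.03% of all symbols. Such a match says only that the letters are there. The stretches of Agxt2 and Prodh2 are shown because they carry the HNF4 type and the HNF1 type letters, in capitals. Those of Agxt2 lie 21 and 67 bases before 2 RefSeq starts. Those of Prodh2 lie 73 bases before the start, and the same letters lie on the opposite strand 124 bases before it.
Agxt2, chr15:10358472-10358532, plus strand: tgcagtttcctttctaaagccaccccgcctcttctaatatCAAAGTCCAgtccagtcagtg
Prodh2, chr7:30493545-30493630, plus strand: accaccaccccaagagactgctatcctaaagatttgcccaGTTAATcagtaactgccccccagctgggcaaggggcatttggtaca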

How the data were processed

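The deposited table gives raw counts of reads per gene for 54532 genes of 10 mouse libraries, 15722527 to 19475833 in each. The authors aligned reads to the mouse genome mm10, with HISAT2 2.0.5 in the submitters' processing notes. The counting tool and strand setting are not given in the sources used here, and no molecular identifiers are described. The table also holds FPKM, which the authors scaled per kilobase of gene length and for library size and which were not used, and the gene length in base pairs, a deposited value of another kind used only for levels per kilobase. The authors' comparison by DESeq2 adds a log2 fold change, a p-value and an adjusted p-value, which were not used, and deposited group means of counts over size factors, a signal used only to see which libraries enter them.

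Counts were filtered for low values with filterByExpr, scaled by TMM and tested by the quasi-likelihood F test of edgeR 4.0.16 in R 4.3.3. p was adjusted by Benjamini and Hochberg over all tested genes, 16505 over all 10 libraries and 16550 over the 8. SE is the absolute log2 fold change over the square root of F. The alternatives tried were DESeq2 1.42.0, library size alone, RLE scaling, a filter of 10 reads in 5 libraries, no filter, other call thresholds, a replicate block, and each library left out in turn. The members, pathway groups, further pathway genes and markers of proximal and injured tubule, loop and distal nephron, podocytes, endothelium, fibroblasts, leukocytes, hepatocytes, adipocytes and skeletal muscle were chosen with earlier results of these data known. Values in every library are given for the member of smallest unadjusted p in each pathway over all 10 and over the 8 libraries, and for the pairs Bcat1 and Bcat2, and Prodh and Prodh2. The rule adds any member below 0 in both fits with an unadjusted p under 0.05, of which there was none, and the 5 further pathway genes of smallest unadjusted p over the 8 libraries. Hibch, Hibadh, Aass, Cbs and Bckdk, with members given by range, were added after the values were seen. GC content is that of the longest transcript in GENCODE M21, and promoters are from RefSeq for GRCm38.p6.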

Additional observations from a re-analysis of the deposited data

Results flagged for a closer look

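In 19 of 100 groups of 5 libraries, a single library lay further from its group than chance does in about 1 of 20 groups: the gap to its nearest neighbour was over 0.71 of the whole range of the group. The groups come from the same 10 libraries and are not independent, so the 19 flags are not separate events and cannot be set against that rate. PBS replicate 3 was the library in 13 members, where it was the highest PBS kidney. It was at 75.6 CPM for Mccc1 (others 32.2 to 44.4), 27.7 for Hibch (16.9 to 19.1), 248 for Acat1 (78.1 to 127), 143 for Aass (27.2 to 58.0) and 156 for Hykk (42.5 to 65.5). For Gcdh it was at 121 CPM (36.0 to 59.9), for Hpd 5.57 (0.0532 to 1.11), for Prodh 70.9 (29.5 to 40.6) and for Glud1 373 (293 to 314). For Ass1 it was at 485 CPM (72.0 to 159.8), for Agxt2 37.9 (12.2 to 18.3), for Cbs 69.7 (18.7 to 31.5) and for Cth 67.0 (17.2 to 30.0). Its sum over the 37 members was 3757 CPM (others 1626 to 2232), and mitochondrial transcripts that encode protein were 3.58% of its counts (1.90 to 2.25%).

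DMM replicate 4 had reads on 20029 genes (other DMM libraries 22898 to 23583) and 0.392% of its counts on mitochondrial rRNA (0.0484 to 0.0743%). Adipocyte markers summed to 27.4 CPM in PBS replicate 4 (other PBS libraries 0.212 to 6.12) and to 2.01 CPM in DMM replicate 5 (other DMM libraries 0 to 0.510).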

How the results depend on the processing

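Over all 10 libraries 0 members were called under every other setting, a replicate block included, and 8 over the 8 libraries of the authors' means. Over those 8, the count of 8 stood against 2.73% of tested genes called higher. The count became 1 at an adjusted p under 0.01 (0.441% of genes), 14 by DESeq2 (3.74%) and 3 with library size alone (1.67%). It was 7 with no filter on low counts (1.35%, without Hibch and Hibadh, with Hpd). With a further library left out it ran from 1 (without PBS replicate 5, for example, 0.774%) to 26 (without DMM replicate 4, 6.71%). The direction of 32 of 35 members held throughout. Amdhd1 ran from -0.306 (without DMM replicate 3) to 0.0231 (without PBS replicate 5) over all 10, and from -0.255 to 0.175 (same libraries) over the 8, where it was also above 0 without DMM replicate 2 (0.0138) and DMM replicate 4 (0.116). Bckdhb over all 10 ran from -0.00745 (without DMM replicate 5) to 0.318 (without PBS replicate 3), and Bckdk over the 8 was at -0.0108 with library size alone. The cause was not tested. Over all 10 libraries no difference passed the test, also those above the fold change limit, such as 1.88 for Hpd and 0.78 for Hykk. Tat and Hal, at a few reads, could not be compared.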
